A study of Mus musculus with 20 samples.

Results

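The 10 genes described here are readouts of endoplasmic reticulum (ER) stress and of the transcription factor ATF4: *Hspa5*, *Creld2*, *Sdf2l1*, *Dnajb9*, *Xbp1*, *Herpud1*, *Atf4*, *Ddit3*, *Trib3* and *Asns*. They were chosen by symbol as a pathway, with earlier results of these data known, and all 10 were found among the 55487 gene identifiers of the count table. RNA was sequenced from whole liver of 20 female C57BL/6J mice that were 28 weeks old, with 1 library per mouse. Chow-fed mice (n = 5) received chow throughout. The other 15 mice received a high-fat diet (HFD) from 8 weeks of age for 10 weeks and then, for 10 more weeks, isocaloric HFDs in which 50% of the protein came from fishmeal of salmon by-products, salmon filet or beef (n = 5 each). The authors selected the sequenced mice from larger diet groups. The label of mouse 31 gives salmon filet, whereas its column in the count table is named as beef, and it was counted as beef here. Comparisons of all HFD-fed mice with chow, of fishmeal with chow, and of fishmeal with the remaining HFD-fed mice do not depend on this choice.

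Libraries held 42526234 to 70266136 counts on genes, and no 2 libraries of a group agreed within sampling noise (40 pairs). The protein coding share was 93.2% to 95.6%, except for 84.3% in mouse 35. The 6 hepatocyte markers added to 84706 to 120248 CPM (counts scaled to library size) per library, so the tissue carried its label. In bulk tissue, fewer cells of a type cannot be told apart from less RNA per cell.

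Proteins that enter the secretory pathway fold in the ER, which is extensive in hepatocytes because the liver makes most plasma proteins. When unfolded proteins build up, the ER membrane sensors IRE1, PERK and ATF6 start the unfolded protein response. IRE1 splices *Xbp1* RNA, ATF6 is cut to release a transcription factor, and together they raise chaperones and the machinery that removes misfolded proteins. PERK and other kinases that respond to a lack of amino acids, haem or to viral RNA phosphorylate the initiation factor eIF2-alpha, which favours translation of *Atf4* RNA. ATF4 then raises genes for amino acid uptake and synthesis, and with CHOP, the product of *Ddit3*, genes such as *Trib3*. Gene counts do not separate spliced from unspliced *Xbp1*, and RNA levels do not show translation of ATF4.

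The DNA elements through which these factors act are shown because some of the 10 genes carry them close to the start of transcription. Promoter windows from RefSeq on GRCm38.p6, which run from 250 bases before to 50 bases after the start of each gene, were searched on both strands. Distances in this paragraph are from the RefSeq start. Gene positions given later are from GENCODE, whose first base differs for some genes. It lies further upstream for *Hspa5*, *Dnajb9*, *Ddit3* and *Asns*, and further downstream for *Xbp1*, *Herpud1* and *Trib3*. The letters searched were the ER stress response element ERSE (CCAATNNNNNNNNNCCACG), ERSE-II (ATTGGNCCACG), the core of the XBP1 element UPRE (TGACGTGG), the cAMP response element CRE (TGACGTCA) and the ATF4 element (TGATGNAAN). Of 32851 windows, 0.119% held ERSE, 0.0365% ERSE-II, 0.676% the UPRE core, 1.79% CRE and 3.95% the ATF4 element. In the stretches below, matches to these letters stand in capitals, and each stretch but that of *Trib3* covers the 150 bases before the start. *Hspa5* (chr2:34771940-34772089, plus strand) held ERSE 65 bases before its start, and *Creld2* (chr15:88819496-88819645, plus strand) held it 126 bases before, in the other orientation.
Hspa5: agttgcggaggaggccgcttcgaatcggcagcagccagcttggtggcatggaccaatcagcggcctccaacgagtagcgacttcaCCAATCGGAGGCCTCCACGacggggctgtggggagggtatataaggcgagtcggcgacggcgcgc
Creld2: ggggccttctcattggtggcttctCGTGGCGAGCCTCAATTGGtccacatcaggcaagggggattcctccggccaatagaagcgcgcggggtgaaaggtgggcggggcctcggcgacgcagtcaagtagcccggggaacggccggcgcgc
*Herpud1* (chr8:94386279-94386428, plus strand) held an ATF4 element 113 bases before its start, in the other orientation, and ERSE-II 52 bases before it. *Asns* (chr6:7693210-7693359, minus strand) held an ATF4 element 23 bases before its start. The GENCODE starts of *Hspa5* and *Asns* lie upstream of their matches.
Herpud1: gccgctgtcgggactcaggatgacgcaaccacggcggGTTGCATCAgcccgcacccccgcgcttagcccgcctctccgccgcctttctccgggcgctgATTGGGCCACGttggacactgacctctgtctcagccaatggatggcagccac
Asns: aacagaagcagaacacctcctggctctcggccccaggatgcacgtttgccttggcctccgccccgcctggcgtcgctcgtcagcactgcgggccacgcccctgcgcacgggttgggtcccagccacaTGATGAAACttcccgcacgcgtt
*Trib3* (chr2:152344029-152344057, minus strand) held an ATF4 element in the other orientation, 13 bases after its RefSeq start, which is before the GENCODE start.
Trib3: ttagctcaggTTTACATCAgccgggcggg
No match to these letters lay in the windows of *Xbp1*, *Dnajb9*, *Sdf2l1*, *Atf4* and *Ddit3*. The GENCODE start of *Dnajb9* lies upstream of its whole window, so the bases before that start were not searched. The UPRE core and CRE were in none of the 10 windows. A match is a stretch of letters and not a measured binding site.

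Levels between genes were compared in TPM, a share of transcripts that accounts for gene length. *Hspa5* stood highest at 352 ± 92.2 TPM (SD, n = 20), followed by *Herpud1* at 188 ± 83.3 and *Xbp1* at 96.9 ± 22.8. *Atf4* (50.3 ± 11.5 TPM) and *Dnajb9* (42.7 ± 13.3 TPM) differed by less than their SD, as did *Creld2* (24.6 ± 8.66 TPM) and *Sdf2l1* (23.1 ± 6.89 TPM). The stress genes at the end of the ATF4 pathway were low, with *Ddit3* at 5.82 ± 0.896 TPM and *Trib3* at 3.69 ± 1.75 TPM. *Asns* was close to the limit of detection at 0.184 ± 0.0978 TPM, which rested on 3 to 28 counts per library. All later levels are CPM scaled with TMM factors, which compare 1 gene between mice.

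HFD-fed livers were compared with chow-fed livers to ask how HFD feeding relates to these genes. Of the 10 genes, 3 passed the test in edgeR at an adjusted p under 0.05 over all genes. *Trib3* was higher in HFD, and *Atf4* and *Dnajb9* were lower. Among all 17120 genes tested 9.75% passed, 777 of them higher and 892 lower. The other 7 genes did not pass. Over all 10 genes the median log2 fold change (log2FC) was -0.22, against 0.0050 over all genes tested. The central chaperone *Hspa5* was not among those that passed, and the groups overlapped for each of the 10 genes.

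**Figure D1:**
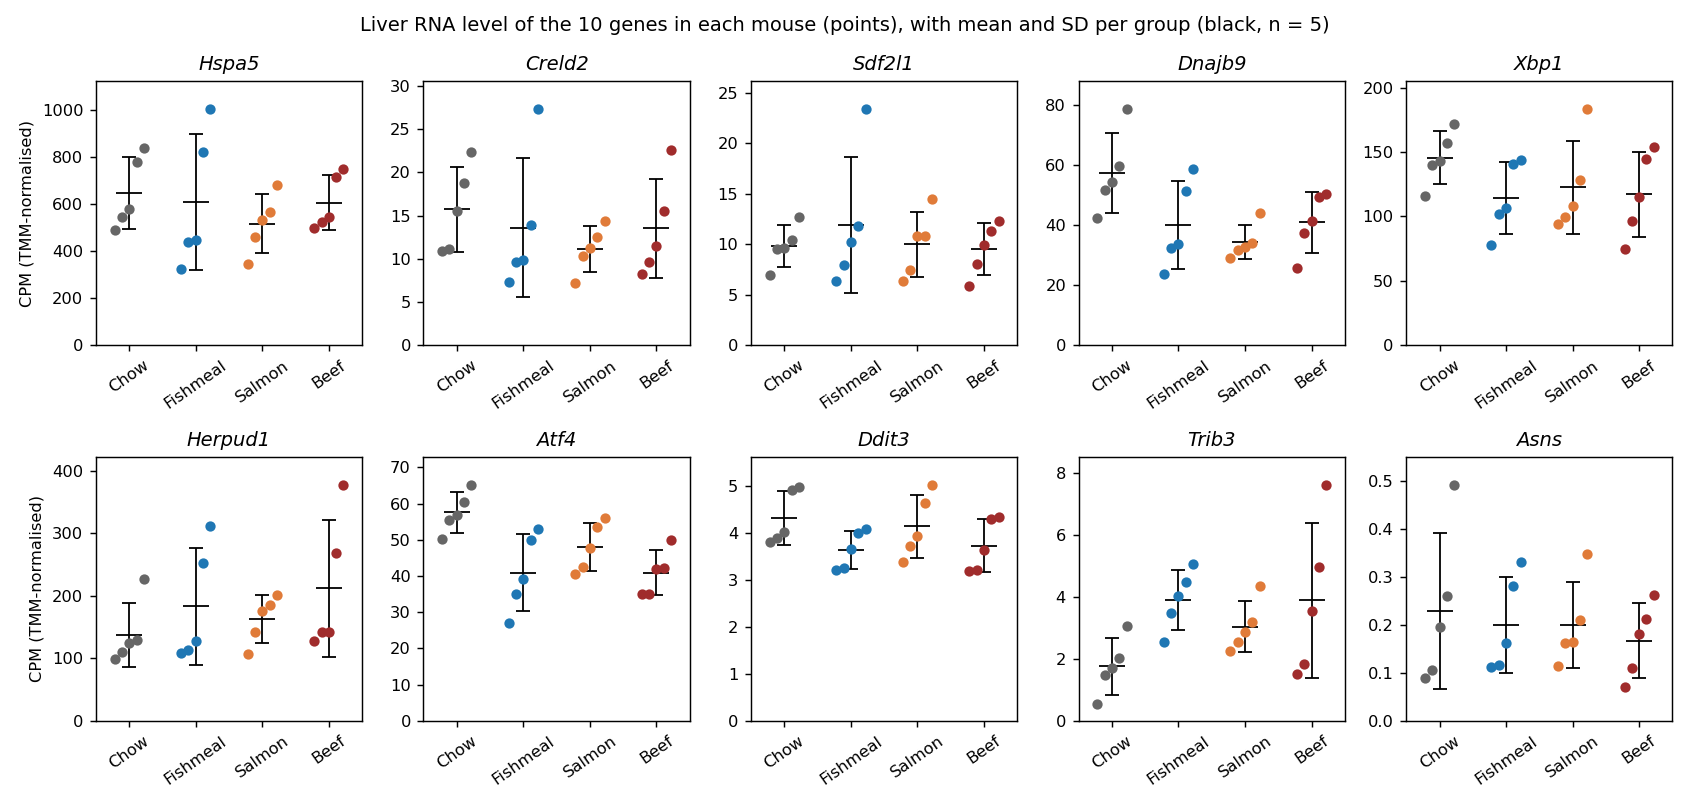
Level of each of the 10 genes (y axis, CPM) in chow, fishmeal, salmon filet and beef livers. Points are mice, and black lines give the mean and SD of 5 mice. Of the 15 HFD-fed mice, 14 lay above the chow mean for *Trib3* and 15 below it for *Atf4*.

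Of the genes that respond to ER load, the chaperone *Hspa5* (chr2:34771970-34777547 on GRCm38), which encodes BiP, the ER member of the Hsp70 family, was the most abundant. Chow-fed mice 1, 2, 5, 7 and 10 had 780, 490, 839, 543 and 577 CPM. Fishmeal-fed mice 12, 13, 14, 16 and 20 had 1003, 326, 439, 820 and 448 CPM. The highest and the lowest *Hspa5* level of the study therefore both came from fishmeal-fed livers. Mice 22, 23, 25, 26 and 27 on salmon filet had 681, 567, 345, 530 and 460 CPM, and mice 31, 32, 35, 39 and 40 on beef had 749, 545, 499.7, 523 and 714 CPM. The log2FC in HFD versus chow was -0.17 ± 0.20 (SE), with a 95% confidence interval of -0.59 to 0.25 and an adjusted p of 0.666.

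*Creld2* (chr15:88819646-88826683) encodes an ER protein that acts on disulphide bonds, and *Sdf2l1* (chr16:17130138-17132383) a partner of BiP complexes. *Creld2* ranged from 10.9 to 22.3 CPM in chow and from 7.21 to 27.3 CPM in HFD, with a log2FC of -0.30 ± 0.25 (SE, adjusted p = 0.497). *Sdf2l1* ranged from 6.90 to 12.7 CPM in chow and from 5.83 to 23.4 CPM in HFD, with a log2FC of 0.09 ± 0.24 (SE, adjusted p = 0.862). Mouse 12 on fishmeal was the highest of all 20 mice for *Hspa5*, *Creld2* and *Sdf2l1*. Neither gene passed the test, and the intervals of -0.83 to 0.22 for *Creld2* and -0.40 to 0.58 for *Sdf2l1* leave room for changes in either direction.

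*Dnajb9* (chr12:44205559-44210326) encodes ERdj4, a J-domain partner of BiP that also brings BiP to IRE1. In chow, mice 1, 2, 5, 7 and 10 had 78.5, 42.4, 59.6, 54.4 and 51.8 CPM. Fishmeal gave 58.7, 23.6, 32.3, 51.4 and 33.7 CPM in mice 12, 13, 14, 16 and 20. Salmon filet gave 44.0, 31.6, 29.1, 32.7 and 34.2 CPM in mice 22, 23, 25, 26 and 27, and beef 50.4, 41.4, 25.8, 37.2 and 49.3 CPM in mice 31, 32, 35, 39 and 40. In all, 10 of 15 HFD-fed mice were below the lowest chow-fed mouse, 4 of them on salmon filet. *Dnajb9* fell in HFD, with a log2FC of -0.58 ± 0.17 (SE, adjusted p = 0.0347), and 14 of 15 mice were below the chow mean. The call was lost when mouse 1, 5, 7 or 20 was left out, with adjusted p from 0.0506 to 0.184. *Dnajb9* is 93.3% identical over 697 bases to the pseudogene *Gm6568*, which held 13 counts in all libraries together.

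*Xbp1* (chr11:5520659-5525893), the transcription factor that IRE1 activates by splicing, had 157, 116, 143, 140 and 172 CPM in chow-fed mice 1, 2, 5, 7 and 10. HFD-fed mice ranged from 74.7 to 183 CPM with a median of 108 CPM, and 9 of 15 were below the lowest chow-fed mouse. Its log2FC of -0.31 ± 0.16 (SE) did not pass the test (95% confidence interval -0.64 to 0.02, adjusted p = 0.242). Plasma cells, which arise from B cells, are rich in *Xbp1* and in ER chaperones. The 7 B and plasma cell markers added to 7.28 to 42.5 CPM in chow, with a median of 11.4 CPM, and to 3.39 to 7.88 CPM in HFD. Of the 5 that could be tested, the B cell markers *Cd79a*, *Cd79b* and *Ms4a1* and the plasma cell marker *Jchain* fell. *Derl3* did not pass (log2FC -0.28, adjusted p = 0.752), and *Mzb1* and *Tnfrsf17* were too low to be tested. *Derl3* is also on the list of genes for ER-associated degradation and export used below, so it does not mark plasma cells alone. Their part in the *Xbp1* values was not tested.

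*Herpud1* (chr8:94386438-94395377) encodes an ER membrane protein of the degradation machinery for misfolded proteins. Chow-fed mice 1, 2, 5, 7 and 10 had 110, 98.6, 227, 129 and 124 CPM, so that mouse 5 stood apart from the others. Fishmeal-fed mice 12, 13, 14, 16 and 20 had 128, 113, 253, 109 and 313 CPM. Within this group mice 14 and 20 were higher than mouse 5, and the remaining mice were in the range of the other chow-fed mice. Salmon filet gave 108, 176, 186, 143 and 202 CPM in mice 22, 23, 25, 26 and 27, and beef gave 142, 128, 142, 269 and 378 CPM in mice 31, 32, 35, 39 and 40. With this spread, the log2FC in HFD versus chow of 0.43 ± 0.27 (SE) did not pass the test (95% confidence interval -0.13 to 0.997, adjusted p = 0.353).

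*Atf4* (chr15:80255184-80257541), the transcription factor of the response to amino acid lack and PERK, had 60.5, 55.4, 57.0, 65.1 and 50.1 CPM in chow-fed mice 1, 2, 5, 7 and 10. Fishmeal-fed mice 12, 13, 14, 16 and 20 had 52.9, 39.2, 27.1, 50.0 and 35.0 CPM. Mice 22, 23, 25, 26 and 27 on salmon filet had 47.9, 53.4, 42.6, 56.1 and 40.6 CPM, and mice 31, 32, 35, 39 and 40 on beef had 42.3, 42.0, 35.1, 50.0 and 34.9 CPM. All 15 HFD-fed mice were below the chow mean of 57.6 ± 5.63 CPM (SD, n = 5), and 12 were below the lowest chow-fed mouse. *Atf4* RNA fell in HFD with a log2FC of -0.42 ± 0.12 (SE, adjusted p = 0.0347). Without mouse 1, 2, 5, 7, 13 or 20 the adjusted p was 0.0503 to 0.114.

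*Ddit3* (chr10:127290774-127296288) encodes CHOP, a factor of the late stress response. It ranged from 3.80 to 4.98 CPM in chow and from 3.18 to 5.01 CPM in HFD, with a log2FC of -0.18 ± 0.11 (SE, adjusted p = 0.338). Its exons share 68 bases with *Mars* and 13 with *Gm4189* on the other strand, and whether reads were counted by strand is not given in the sources used here. *Asns* (chr6:7675169-7693254), which makes asparagine and is a usual target of ATF4, ranged from 0.0883 to 0.492 CPM in chow and from 0.0697 to 0.349 CPM in HFD. Its log2FC was -0.27 ± 0.35 (SE, adjusted p = 0.692), and at 3 to 28 counts per library a change inside the interval of -0.99 to 0.46 was not excluded.

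*Trib3* (chr2:152337422-152344032) encodes a pseudokinase that is raised by ATF4 and CHOP and binds the insulin signalling kinase AKT. Chow-fed mice 1, 2, 5, 7 and 10 had 0.540, 1.48, 3.07, 1.69 and 2.01 CPM. Fishmeal-fed mice 12, 13, 14, 16 and 20 had 3.47, 4.48, 4.02, 2.54 and 5.08 CPM, and 4 of these 5 were above every chow-fed mouse. Salmon filet gave 2.87, 3.20, 4.37, 2.53 and 2.25 CPM in mice 22, 23, 25, 26 and 27. Beef gave the widest range, with 1.52, 1.84, 7.62, 3.53 and 4.97 CPM in mice 31, 32, 35, 39 and 40, and the highest value was in the library with the low share of protein coding counts. *Trib3* rose in HFD with a log2FC of 1.04 ± 0.33 (SE, adjusted p = 0.0484), opposite in direction to *Atf4*. This call was close to the threshold: it was kept in 6 of the 20 fits that left out 1 mouse, without mouse 5, 16, 26, 27, 31 or 32, and in the other 14 the adjusted p was 0.0501 to 0.152. It was also lost in a fit on all 4 groups (adjusted p = 0.0575) and when every gene with at least 1 count was tested (adjusted p = 0.0621).

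Each HFD group was also set against chow, and the comparisons share the chow-fed mice. In fishmeal versus chow none of the 10 genes passed in edgeR, and 3.38% of all genes did. An unadjusted p under 0.05 was found for 3 of the 10 and for 2778 of all 16471 genes tested. DESeq2 called *Trib3* there (adjusted p = 0.0133), while limma on TPM called none. The edgeR log2FC of *Trib3* was 1.15 ± 0.35 (SE, adjusted p = 0.0947), with 5 of 5 mice above the chow mean. In salmon filet versus chow, where 4.42% of all genes passed, *Dnajb9* alone of the 10 genes fell, with a log2FC of -0.75 ± 0.16 (SE, adjusted p = 0.0265) and 5 of 5 mice below the chow mean. Leaving out mouse 7, 23, 25, 26 or 27 took its adjusted p to 0.0502 to 0.0729.

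In beef versus chow 3.05% of all genes passed, and of the 10 genes *Atf4* fell, with a log2FC of -0.50 ± 0.12 (SE, adjusted p = 0.0404). Its 5 beef values, up to 50.02 CPM, were just below the lowest chow value of 50.12 CPM. With mouse 31 counted as salmon filet, as labelled, the log2FC was -0.51 and the adjusted p 0.0668. The call was also lost without mouse 1, 2, 5, 7, 31, 32, 35 or 40, at adjusted p of 0.0621 to 0.111. Side by side, *Dnajb9* had log2FCs of -0.53 in fishmeal, -0.75 in salmon filet and -0.49 in beef, and *Atf4* of -0.50, -0.27 and -0.50. *Trib3* stood at 0.79 in salmon filet, and in beef its interval was 0.11 to 2.16. A gene that passed in only some diets is not thereby shown to differ between diets, and the direct tests follow.

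**Figure D2:**
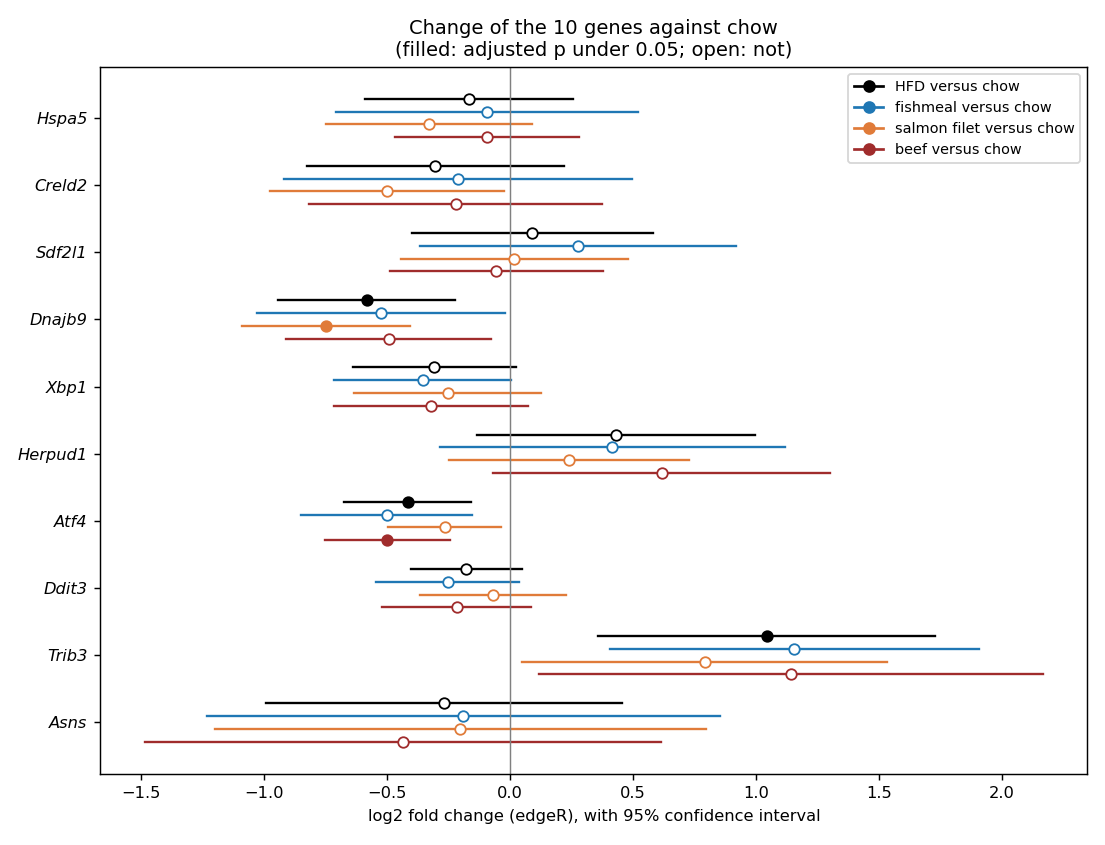
Log2 fold change of each gene against chow (x axis) from edgeR, for all HFD-fed mice and for each HFD group, with 95% confidence intervals. Filled points passed at an adjusted p under 0.05: *Dnajb9*, *Atf4* and *Trib3* for all HFD-fed mice, *Dnajb9* for salmon filet and *Atf4* for beef.

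The HFD groups were compared with each other to ask whether the protein source relates to these genes. None of the 10 genes passed in any of these 4 comparisons, none had an unadjusted p under 0.05 in edgeR, and neither DESeq2 nor limma on TPM called any. Among all genes, 0.17% passed in fishmeal versus salmon filet, 0.0245% in fishmeal versus beef, 0% in salmon filet versus beef and 0.155% in fishmeal versus salmon filet and beef together. In the same order, 851 of 16494, 422 of 16304, 796 of 16212 and 677 of 16795 genes had an unadjusted p under 0.05. *Asns* was too low to be tested in salmon filet versus beef. For fishmeal versus salmon filet and beef, *Trib3* had a log2FC of 0.19 with an interval of -0.44 to 0.82, *Atf4* of -0.11 with -0.42 to 0.20, *Dnajb9* of 0.10 with -0.31 to 0.51 and *Hspa5* of 0.13 with -0.35 to 0.60. With 5 mice on fishmeal and 10 on the other HFDs, the data did not exclude differences inside these intervals.

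Levels of several ER genes followed that of *Hspa5* from mouse to mouse. As a description over 20 mice, which share diet groups and sequencing depth, Pearson's r of log2 CPM between *Hspa5* and *Creld2* was 0.89, and between *Hspa5* and *Dnajb9* 0.83. *Xbp1* (0.64) and *Sdf2l1* (0.63) followed less closely, and *Atf4* stood at 0.43. After subtraction of group means these values were 0.89, 0.89, 0.66, 0.68 and 0.52. Not all pairs were close, and *Dnajb9* was less related to *Sdf2l1* (r = 0.28, or 0.38 with group means subtracted) than to *Atf4* (0.56, or 0.45). *Herpud1*, whose promoter stretch with ERSE-II is shown above, had an r of -0.14 with *Hspa5*. *Trib3* was negatively related to *Dnajb9* (r = -0.67, or -0.54 with group means subtracted) and to *Atf4* (-0.60, or -0.35), and positively to *Herpud1* (0.52, or 0.45). Thus the 10 genes did not vary as 1 group.

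**Figure D3:**
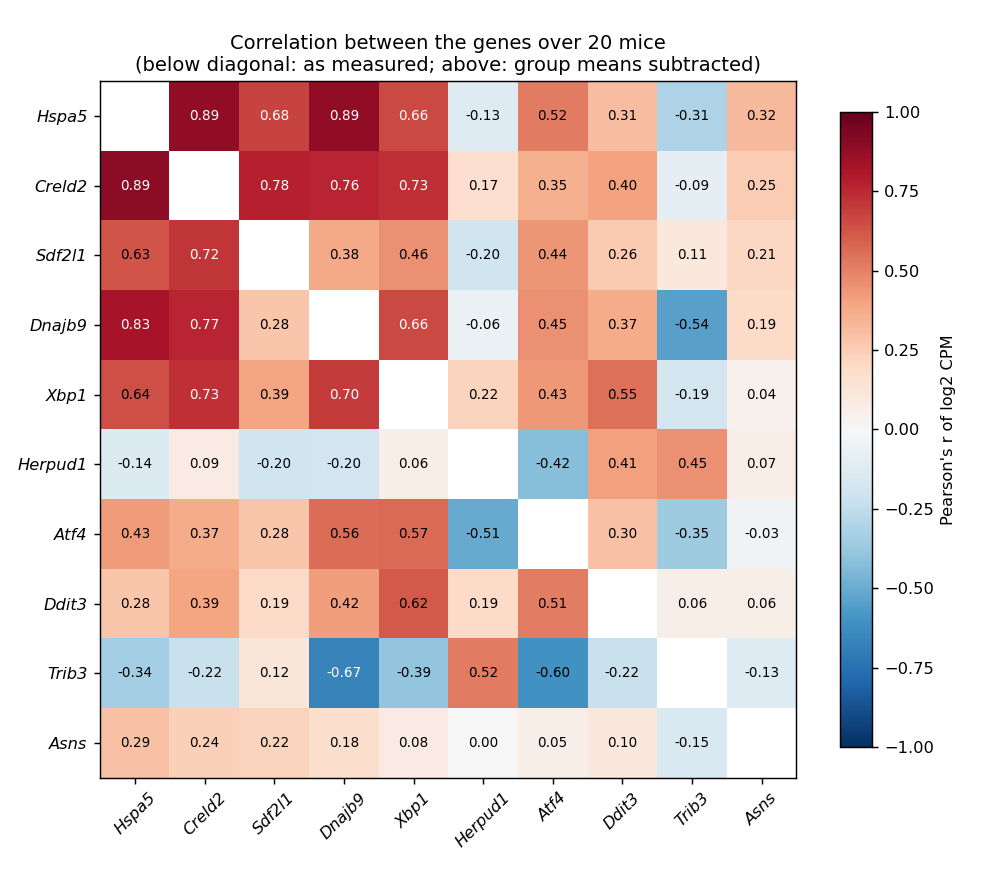
Pearson's r of log2 CPM between pairs of the 10 genes over 20 mice, below the diagonal as measured and above it with group means subtracted. *Hspa5*, *Creld2*, *Dnajb9*, *Xbp1* and *Sdf2l1* form a block of positive values, and *Atf4*, *Ddit3* and *Asns* also had positive values with each of them. *Trib3* and *Herpud1* had values of both signs with the block.

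Among 12691 genes with a mean of at least 1 CPM, those most like *Hspa5* over the 20 mice were *Manf* (r = 0.96), *Hyou1* (0.92), *Gfpt1* (0.91), *Sec23b* (0.91), *Tmem248* (0.91), *Alg12* (0.90), *Txndc11* (0.88) and *Nme6* (0.87). *Manf* encodes a secreted ER stress protein, *Hyou1* an ER chaperone, *Gfpt1* the entry enzyme of hexosamine synthesis, *Sec23b* a coat protein of vesicles that leave the ER and *Alg12* an enzyme of N-glycan assembly. *Creld2* ranked 7th and *Dnajb9* 21st in this order. Those most like *Trib3* were ENSMUSG00000116138, which carried no symbol, *Hs1bp3*, *Gulo*, *Hmgb1*, *Tenc1*, *Cnppd1*, *Cdc42ep4* and *Dennd1a*, with r from 0.91 to 0.93. None of the latter belongs to the lists of stress genes used here, and *Herpud1*, the nearest of the 10 genes, ranked 2536th.

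Clock genes differed by diet and moved with some of the genes. The clock gene score is the mean centred log2 CPM of 10 genes that peak in the evening, such as *Dbp* and *Per3*, minus that of 5 genes that peak around the morning, such as *Clock* and *Cry1*. It ran from -2.89 to -0.97 in chow and from -2.10 to 3.45 in HFD. Of the evening genes 8 of 10 rose in HFD versus chow and none fell, led by *Dbp* with a log2FC of 4.70 ± 0.999 (SE, adjusted p = 0.0042). The hour at which each liver was taken is not given in the sources used here, so diet and hour cannot be told apart. With the score as a covariate, none of the 10 genes passed in HFD versus chow, and genes passing overall went from 1669 to 333. The log2FCs became 0.27 ± 0.32 for *Trib3*, -0.18 ± 0.15 for *Atf4* and -0.40 ± 0.22 for *Dnajb9* (SE; adjusted p of 0.812, 0.679 and 0.469). That of *Herpud1* turned from 0.43 to -0.43.

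Within the 15 HFD-fed mice, the slope of each gene on the score was tested in edgeR with terms for diet, an analysis added after the data had been seen. Among all 16795 genes tested 192 passed, 90 with a rising slope (0.536%) and 102 with a falling slope. Of the 10 genes *Herpud1* alone passed, rising by 0.27 ± 0.050 on the log2 scale per unit of score (SE, adjusted p = 0.0101). Its r with the score was 0.82 (Spearman's rho 0.84, n = 15), and 0.71 without mice 40 and 20, the farthest from the median score. Without mouse 40 its adjusted p was 0.0635. *Trib3* had a slope of 0.25 ± 0.067 (SE, adjusted p = 0.0938), with an r of 0.72 and a rho of 0.65, and 0.66 without those mice. It passed when mouse 13 or mouse 35 was left out. *Hspa5* had a slope of -0.12 ± 0.061 (SE, adjusted p = 0.481), and the remaining genes had adjusted p from 0.453 to 0.953.

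**Figure D4:**
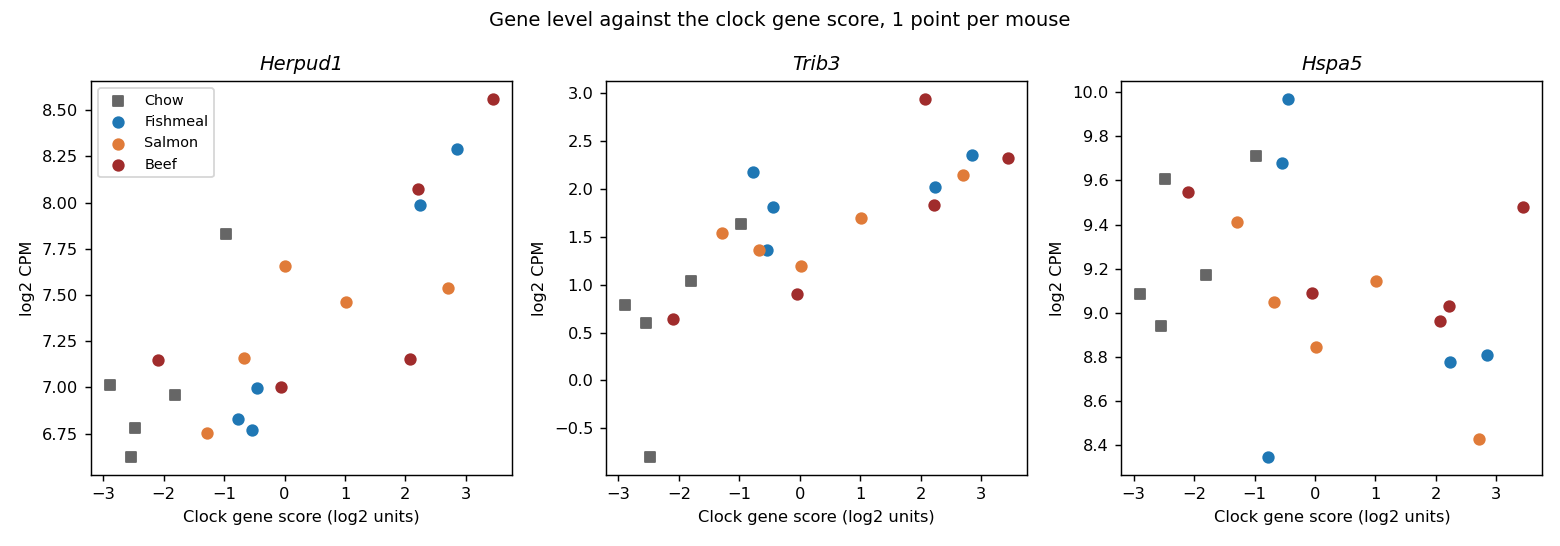
Log2 CPM of *Herpud1*, *Trib3* and *Hspa5* (y axes) against the clock gene score (x axis, log2 units), with 1 point per mouse and chow as squares. *Herpud1* and *Trib3* were higher in HFD-fed mice with a high score (r = 0.82 and 0.72 over 15 mice), and *Hspa5* was not (r = -0.36).

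Genes of 6 other lists of these pathways were counted in the same test of HFD versus chow, in which 9.75% of all genes passed. Among 16 stress sensors and regulators, which include *Ern1* (IRE1), *Eif2ak3* (PERK) and *Atf6*, 1 rose and none fell. This was *Tmbim6*, an ER membrane protein that restrains IRE1 and cell death, with 924 to 1218 CPM in chow, 977 to 1723 CPM in HFD and a log2FC of 0.34 ± 0.099 (SE, adjusted p = 0.0326). None of 19 ER chaperones and folding enzymes passed in edgeR, DESeq2 or limma on TPM. An unadjusted p under 0.05 in edgeR was found for 4174 of all 17120 genes and for 1 of these 19. Their log2FCs ran from -0.34 to 0.14 with a median of -0.05, against 0.0050 over all genes, and *Hyou1* was at -0.18 and *Hsp90b1* at -0.13. Of 20 genes for ER-associated degradation and export, *Derl2*, a channel component for misfolded proteins, rose by a log2FC of 0.33 ± 0.093 (SE, adjusted p = 0.026), and none fell.

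Of 23 ATF4 targets of stress and amino acid uptake, 21 could be tested, 1 rose and 1 fell, a share near the 9.75% of all genes. *Chac1*, which degrades glutathione, ranged from 0.105 to 1.04 CPM in chow and from 0.748 to 6.47 CPM in HFD. Its log2FC of 2.22 ± 0.50 (SE, adjusted p = 0.00626) exceeded that of *Trib3* and had the same sign. *Slc7a5*, the light chain of a transporter of large neutral amino acids, ranged from 2.23 to 2.96 CPM in chow and up to 2.43 CPM in HFD, with a median of 1.80 CPM, with a log2FC of -0.58 ± 0.14 (SE, adjusted p = 0.0116). The median log2FC over the list was -0.02. In DESeq2 *Atf3* and *Sesn2* passed as well, *Atf3* lower and *Sesn2* higher. *Chac1* rose in salmon filet versus chow (1.83, adjusted p = 0.0396) and in beef versus chow (2.57, adjusted p = 0.0224). It did not pass in fishmeal versus chow, which does not show that it was unchanged there. The highest log2FC on the list in that comparison was 2.15, and it may be that of *Chac1*. Passing in only some diets does not show a difference between diets. In fishmeal versus chow *Slc7a5* fell (-0.66, adjusted p = 0.0486), and *Vldlr*, a lipoprotein receptor, rose (0.78, adjusted p = 0.0499).

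The list of ATF4 targets of serine and folate metabolism also holds genes of other pathways. None of its 8 tested genes passed in edgeR, DESeq2 or limma on TPM. An unadjusted p under 0.05 in edgeR was found for 1 of these 8 and for 4174 of all 17120 genes. Synthetases load tRNA with amino acids, and the list of tRNA synthetases, with 13 genes, also holds the tRNA exporter *Xpot*. Of these 13 genes, *Cars* (cysteine) and *Iars* (isoleucine) fell by 0.33 and 0.25 on the log2 scale (adjusted p = 0.0394 and 0.0462), and none rose. With 9.75% of all genes passing, a count of 2 among 13 is not a result about the list. The median of the list was -0.03. With the clock gene score as a covariate, none of the genes on these lists passed, and *Chac1* had a log2FC of 1.15 ± 0.48 (SE, adjusted p = 0.27). No gene on these lists passed between HFD groups.

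**Figure D5:**
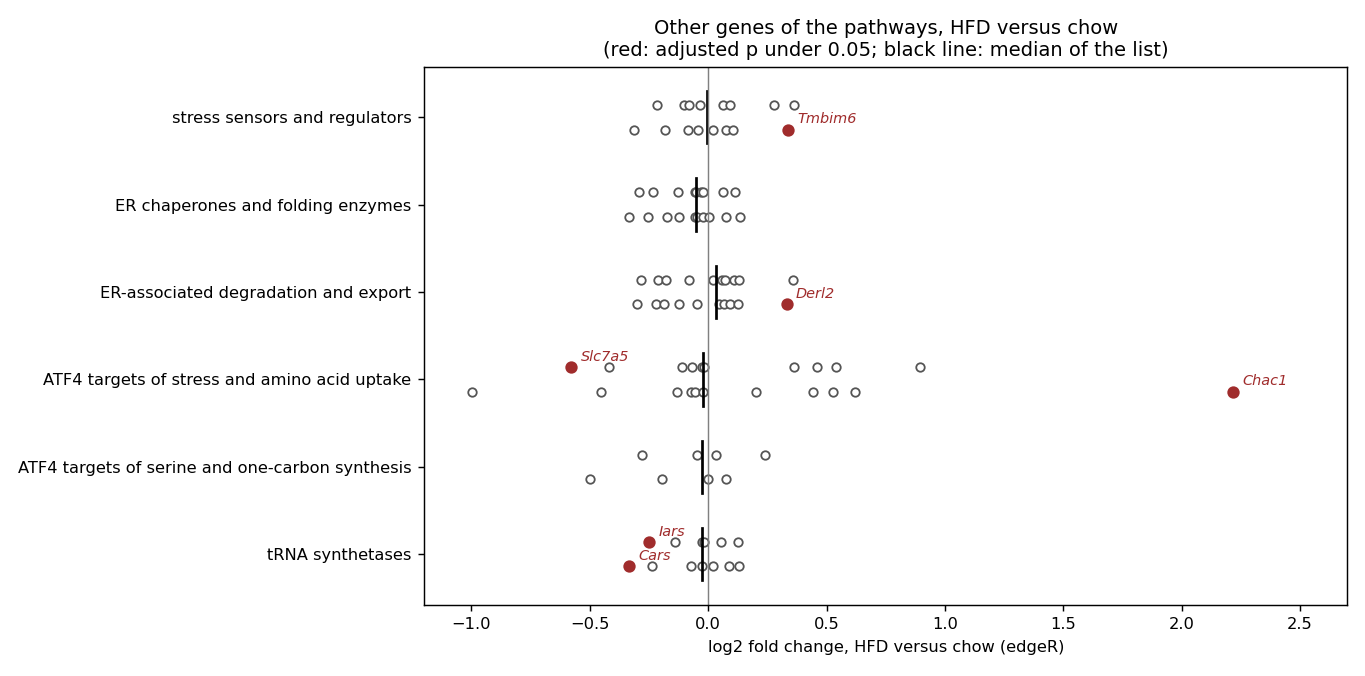
Log2 fold change in HFD versus chow (x axis) of the other genes of these pathways, by list. Red points passed at an adjusted p under 0.05 and are named, and black lines are list medians. *Chac1* at 2.22 stands apart, and the lists are centred between -0.05 and 0.03.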

How the data were processed

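Liver RNA of 20 mice went into strand-specific, paired-end mRNA libraries. The authors used BBDuk for trimming, mapped the reads with HISAT2 (1.2.1 in the submitters' processing notes), and obtained Ensembl gene counts from featureCounts (1.4.6-p1). The deposited values are raw counts for 55487 identifiers, of which 55227 were found in GENCODE M21 (GRCm38), and TPM that the authors computed from them. The sources print a human build name, and settings for strand and multimapping reads are not given in the sources used here.

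Groups followed the ending of each column name. Tests used edgeR 4.0.16 in R 4.3.3 with TMM factors, a filterByExpr minimum of 10 counts and two-sided quasi-likelihood F-tests, with Benjamini-Hochberg adjustment over all genes tested and a threshold of 0.05. Each fit held only the mice compared. P-values set the difference between groups against the spread between mice. Where HFD groups were pooled, that spread also holds differences between the pooled diets. The SE was derived from the F statistic. CPM used TMM factors over 20 libraries, with a prior count of 2 on the log scale. Alternatives were DESeq2 1.42.0, limma 3.58.1 on log2(TPM + 1) or log2(TPM + 0.1) for genes averaging 0.5 TPM or more, upper quartile normalisation or DESeq2 size factors, other count filters (at least 1 count in all, or 10 in every sample), a fit on all 4 groups, the clock gene score as a covariate, mouse 31 as labelled, and each mouse left out in turn. Scripts were tested on simulated data.

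The 10 genes and the lists of other genes were chosen with earlier results of these data known. All 10 genes are named, with each gene of the other 6 lists that passed in HFD versus chow and the 8 genes most like *Hspa5* and *Trib3*. The slope on the clock gene score was chosen after seeing the data. *Vldlr*, *Atf3*, *Sesn2*, *Hyou1*, *Hsp90b1* and the B and plasma cell markers were named after their values were seen.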

Additional observations from a re-analysis of the deposited data

Results flagged for a closer look

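Of 40 sets of 5 mice (10 genes in 4 diet groups), 1 held a mouse whose distance to its nearest neighbour took more than 0.71 of the whole range. This was *Herpud1* in chow-fed mouse 5, at 227 CPM, with the next chow-fed mouse at 129 CPM. Chance flags about 1 in 20 such sets. Mouse 5 also had the highest clock gene score of the chow-fed mice, at -0.97.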

How the results depend on the processing

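With the clock gene score as a covariate, 0 of the 10 genes passed in HFD versus chow (3 in edgeR without it), salmon filet versus chow (1) and beef versus chow (1), as did 0 stress sensors (1), 0 degradation genes (1), 0 ATF4 targets of stress (2) and 0 tRNA synthetases (2). That covariate takes a degree of freedom and is related to diet. DESeq2 called 1 of the 10 genes in fishmeal versus chow (0) and 4 ATF4 targets of stress. In HFD versus chow, *Trib3* was lost in a fit on all 4 groups and on testing genes with at least 1 count, which left 2 of the 10 genes called. A fit on all 4 groups called 0 in salmon filet and 0 in beef versus chow, and limma on log2(TPM + 1) or log2(TPM + 0.1) and mouse 31 as labelled called 0 in beef versus chow. Between HFD groups, 0 of the 10 genes passed under every alternative run. Testing genes with at least 1 count, which adds low genes to the adjustment, called 0 stress sensors and 0 tRNA synthetases. Testing genes with 10 counts in every sample called 1 chaperone, *Ero1l* (0), and 1 ATF4 target of stress, where *Chac1* could not be tested. Limma on log2(TPM + 0.1) called 1 tRNA synthetase. The causes were otherwise not tested.

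Leaving out each mouse gave 0 to 3 of the 10 genes in HFD versus chow, 0 to 1 in fishmeal, salmon filet or beef versus chow, 0 to 2 for the slope on the clock score, 0 to 1 stress sensors, 0 to 1 chaperones, 0 to 2 degradation genes, 2 to 3 ATF4 targets of stress and 0 to 2 tRNA synthetases. Over all genes, calls in HFD versus chow ranged from 333 with the clock score to 2185 in DESeq2, from 45 to 1198 in fishmeal, 24 to 1711 in salmon filet and 18 to 1179 in beef versus chow, and DESeq2 called 100, 35, 4 and 66 in the comparisons between HFD groups, against 28, 4, 0 and 26. Limma on log2(TPM + 1) gave 414 higher and 806 lower genes in HFD versus chow. For single genes, 1794 of 1848 refitted values kept their side of the threshold, and no called value changed sign. In 44 of 89 results the sign changed under some alternative, with neither value called. No paired analysis was possible because the mice of different groups share no numbers. Depth limits *Asns* most.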
